A study of Rattus norvegicus with 12 samples.

Results

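The genes described are those of the proteasome in rat liver. They were chosen by symbol: every probe set that the platform annotation ties to a single symbol of the Psma, Psmb, Psmc, Psmd, Psme or Psmf series, with Psmb8 and Psmb9 left out. This gave 50 probe sets of 29176 on the array and 40 genes of the 13643 with a probe set of their own. Of these genes 33 had 1 probe set, 4 had 2 and 3 had 3, and all 50 probe sets had a value in all 12 rats. A gene with several probe sets is represented by the brightest of them unless stated. Psmb6 and Psme3 were measured only by probe sets that carry several symbols and were not counted. The symbols Psmc3ip and Psme3ip1 met the rule although neither encodes a part of the proteasome. Psmc3ip encodes a partner of meiotic recombinases, and the product of Psme3ip1 binds a nuclear proteasome activator. Both are counted among the 40 and kept apart below, which leaves 38 genes for subunits, assembly chaperones, activators and an inhibitor.

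The livers came from male Sprague Dawley rats labelled as weighing 176 to 200 g (the study's methods give a higher weight at the start), in 4 groups of 3, each rat on 1 array. The rats received by mouth, for 5 days, either vehicle (0.2% hydroxypropylmethylcellulose at 10 ml/kg) or A-998679 in that vehicle at 30, 100 or 200 mg/kg/day, and all were fasted overnight after the last dose. For the top dose the sample titles and the study's methods give 200 mg/kg/day and the free description gives 300 mg/kg/day, and the former was used. A-998679 enhances the response of nicotinic acetylcholine receptors, and the study asked why its plasma exposure fell when dosing was repeated.

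The proteasome is the barrel-shaped protease that degrades proteins tagged with ubiquitin. Its 20S core is a stack of rings, the outer rings built from alpha subunits that gate the entrance and the inner rings from beta subunits, among which Psmb5, Psmb6 and Psmb7 encode the catalytic ones. A 19S cap recognizes the tag, removes it and threads the protein into the core: its base holds a ring of ATPases encoded by the Psmc genes, and its lid holds Psmd products, among them the deubiquitinase encoded by Psmd14. Interferon gamma replaces the catalytic subunits by Psmb8, Psmb9 and Psmb10, which form the immunoproteasome, and raises Psme1 and Psme2, which encode the activator PA28. In mammalian cells the constitutive subunit genes are known to be raised together by Nfe2l1 when the proteasome is inhibited, and several are known targets of Nfe2l2 in rodents.

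Of the members, Psmb10 alone had a slope over dose that passed, and that call was not stable, as given below. The 250 bases before the annotated start are shown for 4 genes: Psmb10, Psme2, Psmc3 and, for comparison, the constitutive catalytic gene Psmb5. They are RefSeq sequences of the GRCr8 build, written 5′ to 3′ along the gene. Psmb10 lies on the minus strand at chr19:50743293-50743542, Psme2 on the minus strand at chr15:33052752-33053001, Psmc3 on the plus strand at chr3:97487393-97487642 and Psmb5 on the minus strand at chr15:32047380-32047629. Capitals mark matches, on either strand, to the letters of 4 known regulatory motifs: GAAA and GAAA with any 2 bases between them, the core of the interferon-stimulated response element, TGACNNNGC, the core of the antioxidant response element, TNGCGTG, the core of the dioxin response element to which the aryl hydrocarbon receptor binds, and CCAAT, the CCAAT box.
Psmb10: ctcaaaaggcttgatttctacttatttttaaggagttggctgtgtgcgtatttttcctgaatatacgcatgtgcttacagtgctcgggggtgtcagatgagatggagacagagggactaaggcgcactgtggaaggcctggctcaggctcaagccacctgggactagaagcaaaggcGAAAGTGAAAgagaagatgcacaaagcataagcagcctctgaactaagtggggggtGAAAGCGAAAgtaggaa
Psme2: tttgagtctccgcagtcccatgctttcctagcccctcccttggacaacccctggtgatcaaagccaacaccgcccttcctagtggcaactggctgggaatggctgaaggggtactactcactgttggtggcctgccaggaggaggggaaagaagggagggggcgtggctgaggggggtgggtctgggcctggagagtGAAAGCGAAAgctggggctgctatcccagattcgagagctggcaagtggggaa
Psmc3: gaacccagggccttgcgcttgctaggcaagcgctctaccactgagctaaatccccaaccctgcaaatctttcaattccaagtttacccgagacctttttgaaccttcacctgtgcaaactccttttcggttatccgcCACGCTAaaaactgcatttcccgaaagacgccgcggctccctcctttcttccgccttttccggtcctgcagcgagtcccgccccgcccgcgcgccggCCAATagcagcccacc
Psmb5: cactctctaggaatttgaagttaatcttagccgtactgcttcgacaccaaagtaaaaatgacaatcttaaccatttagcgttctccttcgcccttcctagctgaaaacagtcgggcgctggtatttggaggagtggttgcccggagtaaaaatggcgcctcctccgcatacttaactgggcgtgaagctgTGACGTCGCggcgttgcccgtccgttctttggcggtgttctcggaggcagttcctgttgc
The interferon motif was looked for after the values of Psmb10 were seen. It occurred at positions -73 and -17 from the start in Psmb10 and at -53 in Psme2. Psmb5 held the antioxidant motif at -60, and Psmc3 held the dioxin motif at -113 and the CCAAT box at -16. Psme1 held none of the 4. A window of 300 bases, from 250 before to 50 after the start, was found for 36 of the 40 genes, and Psma7, Psmd6, Psmd12 and Psmd14 had none. In these windows the interferon motif occurred in 5 of 36 members (13.9%; Psma4, Psmb3, Psmb10, Psmd7 and Psme2) against 3.92% of 33469 windows in all, the CCAAT box in 19 (52.8% against 37.5%), the antioxidant motif in 7 (19.4% against 12.1%) and the dioxin motif in 3 (8.33% against 4.89%). A match is a description of the letters and no measure of binding.

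All values below are log2 intensities from 1 array per rat, and differences between groups are log2 fold changes. Array medians lay between 5.21 and 5.26. Correlations between arrays over 20497 probe sets were 0.913 to 0.938 within groups and 0.91 to 0.941 between groups. The members were mostly bright: apart from Psmc3ip, at 3.60, their vehicle means ran from 6.30 (Psmb10) to 10.45 (Psmb4). Of 8 listed hepatocyte markers 7 were measured, all in all rats. The log2 of their summed intensity was 15.66 to 15.76 in the vehicle rats and 15.41 to 15.71 in the 200 mg/kg rats. At that dose 0 of the 7 passed, where 0.195% of all genes passed as higher and 0.148% as lower. At an unadjusted p under 0.05, 3 were lower (4.85% of all genes). The median log2 fold change of the 7 was -0.22, and their part in the results below was not tested. In whole liver, fewer cells of a type and less RNA per cell cannot be told apart.

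**Figure D1:**
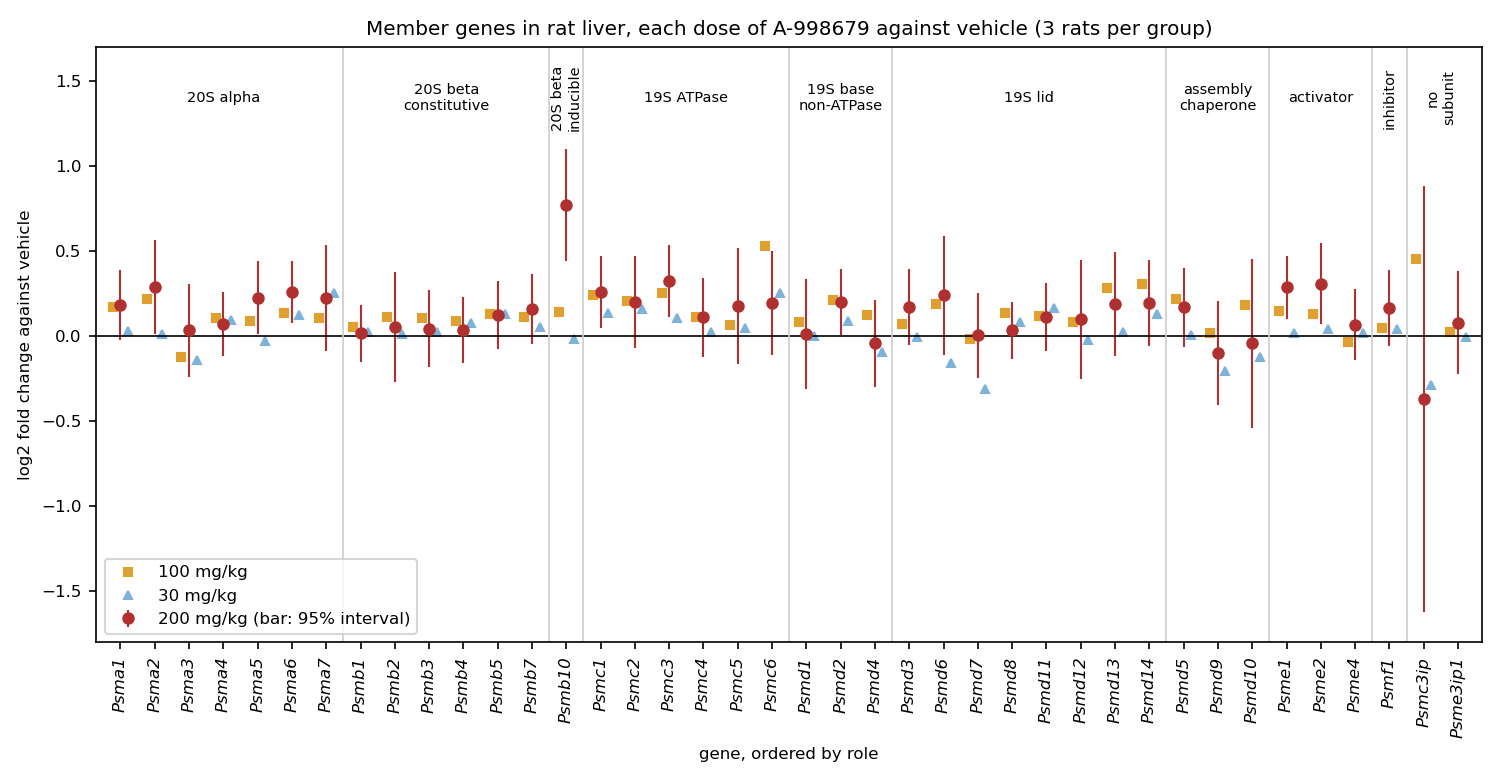
Log2 fold change of each of the 40 member genes against vehicle at 200 mg/kg (circles, with the 95% interval of the fit), 100 mg/kg (squares) and 30 mg/kg (triangles), ordered by role along the horizontal axis, 3 rats per group. Most circles lie slightly above 0, with 36 of 40 positive at 200 mg/kg, and Psmb10 stands apart at 0.77.

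Most members were slightly above vehicle at the upper 2 doses, and the differences were small. At 200 mg/kg, 36 of the 40 genes lay above vehicle, where 50.7% of all genes tested did, and their median log2 fold change was 0.16, a 1.119-fold difference, against 0.006 over all genes. None of the 40 passed an adjusted p of 0.05 (limma with Benjamini-Hochberg adjustment over 26686 probe sets), where 0.195% of all genes passed as higher. At an unadjusted p under 0.05, 9 members lay higher (5.75% of all genes) and 0 lay lower (4.85%). In 12 of the 40 all 3 treated rats lay above all 3 vehicle rats, against 9.19% of all genes, and in 0 all lay below, against 7.57%. As lower, 0.148% of all genes passed. Over genes with a mean log2 value of at least 6.5, the backgrounds as higher were 8.67% at an unadjusted p under 0.05 and 11% without overlap. That cut is a minimum and does not match the genes to the members in brightness, as most members lay well above it.

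With all rats, the median was smaller at 100 mg/kg and smaller again at 30 mg/kg. The order of the upper 2 doses depended on single rats. Without rat 1 at 200 mg/kg the medians were 0.087 at 200 mg/kg and 0.12 at 100 mg/kg. Without vehicle rat 1 they were 0.097 and 0.096. At 100 mg/kg, 37 of 40 lay above vehicle (51.9% of all genes) with a median of 0.12 (0.013 over all genes), 0 passed (0.0155% of all genes passed as higher), at an unadjusted p under 0.05 it was 5 higher (3.91%) and 0 lower (2.98%), and 10 were without overlap above vehicle (8.17%). At 30 mg/kg, 27 of 40 lay above vehicle (50.6%) with a median of 0.025 (0.003), 0 passed (0% of all genes passed as higher and 0.00777% as lower), 0 were higher (2.49%) and 1, Psmd7, lower (2.63%) at an unadjusted p under 0.05, and 5 were without overlap above (5.23%) and 1 below (5.04%). With the 3 doses averaged, 35 of 40 lay above vehicle (49.6%) and the median was 0.093 (-0.002 over all genes). There 0 members passed (0.0473% of all genes as higher and 0.0394% as lower), at an unadjusted p under 0.05 it was 7 higher (4.74%) and 0 lower (3.01%), and 0 had all 9 treated rats above all vehicle rats (0.839%). All these comparisons share the same 3 vehicle rats.

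**Figure D2:**
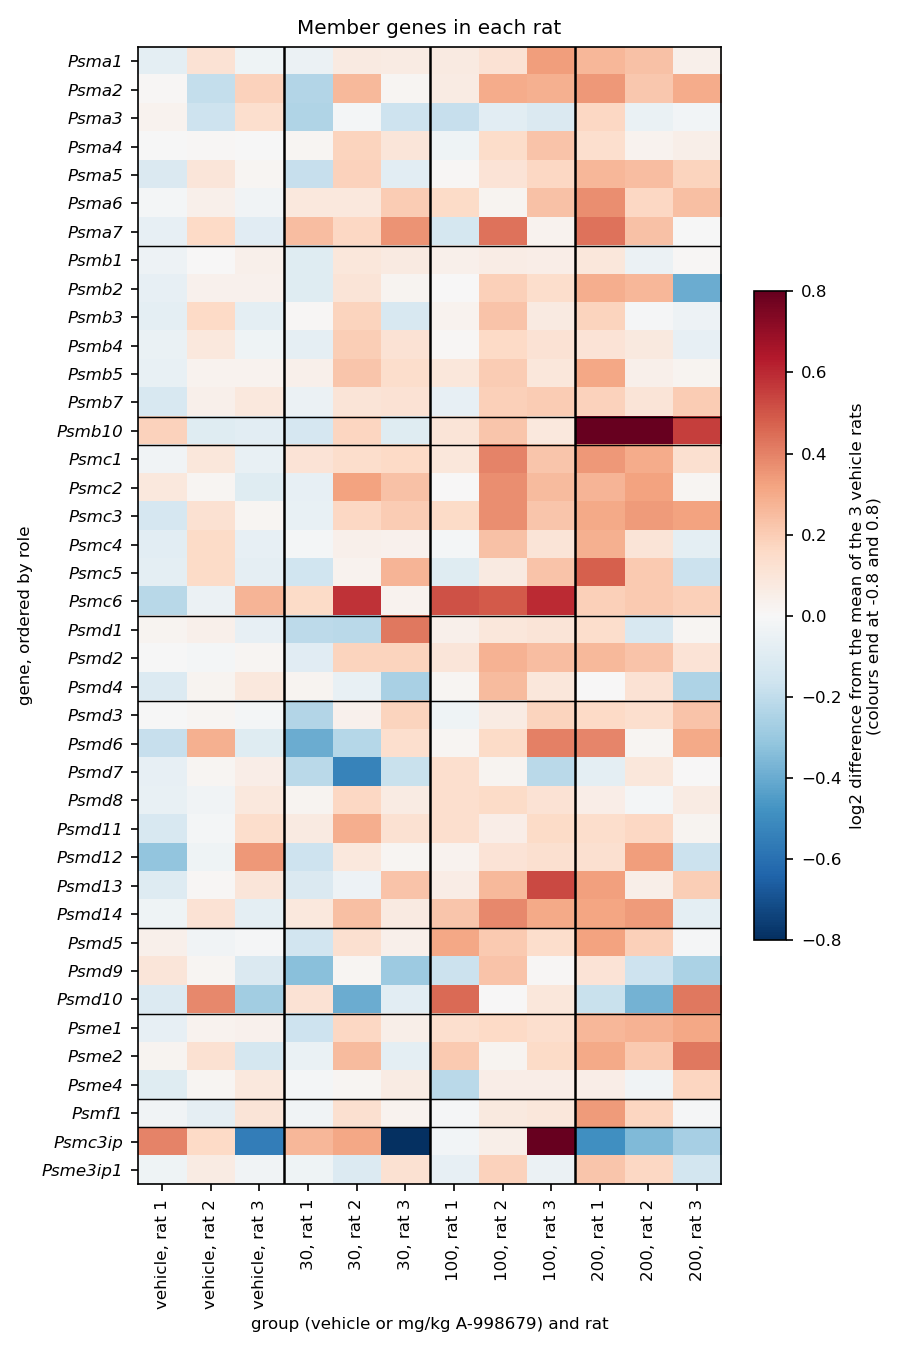
Log2 difference of each member gene (rows, ordered by role) from the mean of the 3 vehicle rats, in each of the 12 rats (columns, by group), with red above and blue below and colours ending at -0.8 and 0.8. Of the 40 members, 39 and 37 lie above the vehicle mean in rats 2 and 3 of the 100 mg/kg group and 37 and 31 in rats 1 and 2 of the 200 mg/kg group, but also 32 and 30 in rats 2 and 3 of the 30 mg/kg group. In rat 3 of the 200 mg/kg group the strongest red is in Psmb10 (0.552), Psmd10 (0.424), Psme2 (0.415), Psmc3 (0.328), Psme1 (0.311) and Psmd6 (0.305).

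The shift was uneven between rats of a group. Over the 40 genes the median difference from the vehicle mean was -0.058, 0.026 and -0.005 in the vehicle rats 1, 2 and 3. The rats at 30 mg/kg gave -0.053, 0.13 and 0.064. Those at 100 mg/kg gave 0.035, 0.16 and 0.14, and those at 200 mg/kg 0.26, 0.16 and 0.023. Rat 3 at 200 mg/kg and rat 1 at 100 mg/kg thus lay in the range of the vehicle rats or just above it, and rat 2 at 30 mg/kg lay near the rats of the higher doses. The same median over 10841 genes measured in all rats lay between -0.006 and 0.032. Without rat 1 at 200 mg/kg the members' median at that dose was 0.087, and without vehicle rat 1 it was 0.097, with 32 and 33 of 40 genes above vehicle.

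**Figure D3:**
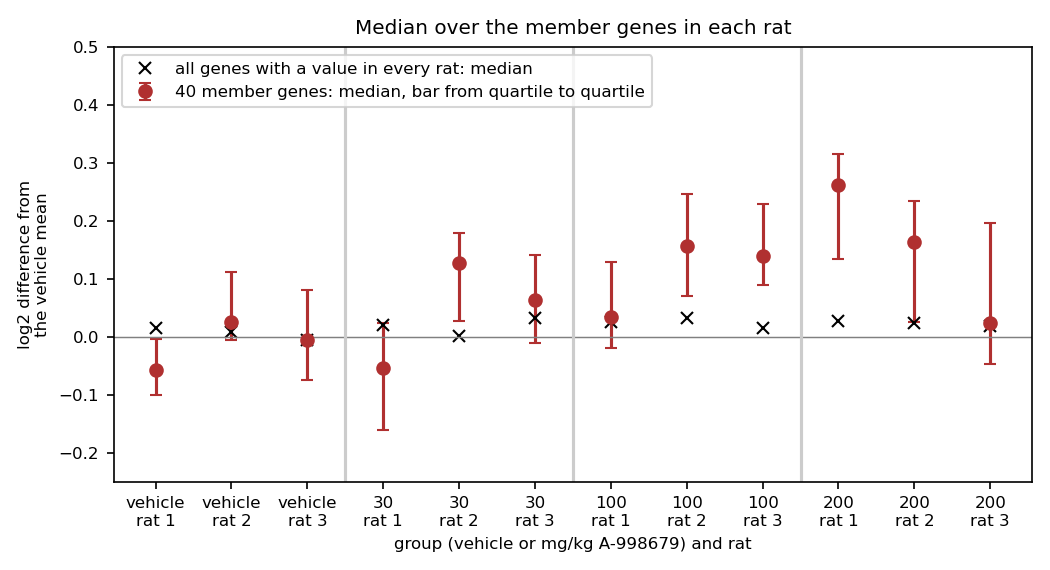
Median log2 difference of the 40 member genes from the vehicle mean in each rat (circles, bars from the lower to the upper quartile of the genes) and the median over all genes with a value in every rat (crosses). The member median reaches 0.26 in rat 1 at 200 mg/kg and 0.023 in rat 3 of the same group, while the crosses stay within 0.032 of 0.

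Psmb10, the inducible beta subunit that replaces the product of Psmb7 in the immunoproteasome, was the member whose slope over dose passed. Its log2 values were 6.48, 6.20 and 6.21 in the vehicle rats, 6.16, 6.47 and 6.20 in the 30 mg/kg group, 6.4, 6.52 and 6.38 in the 100 mg/kg group, and 7.10, 7.26 and 6.85 in the 200 mg/kg group. The rats at 200 mg/kg lay above the other 9, and the groups below that dose overlapped each other. The slope over dose was 0.40 per 100 mg/kg (95% interval 0.24 to 0.55, adjusted p = 0.035, limma over 27884 probe sets, n = 3 rats per group). It was the 1 member of 40 to pass in that comparison, where 0.295% of all genes passed as higher and 0.204% as lower. Against vehicle, Psmb10 was 0.77 higher at 200 mg/kg, a 1.707-fold difference (interval 0.44 to 1.10, adjusted p = 0.069), with differences of 0.14 for 100 mg/kg and -0.018 for 30 mg/kg. Against 30 mg/kg, it was 0.79 higher at 200 mg/kg (adjusted p = 0.12), and 0 members passed there (0.0389% of all genes passed as higher). In that comparison 31 of 40 members lay above the 30 mg/kg group (50.5%), with a median of 0.104. That median was 0.047 with 25 of 40 above when rat 1 of the 200 mg/kg group was left out, 0.168 without rat 3 of that group and 0.066 without rat 1 of the 30 mg/kg group. At an unadjusted p under 0.05, 7 lay higher (4.52%) and 0 lower (4.03%), and 4 were without overlap above (7.3%) and 0 below (6.05%): Psmb10, Psmc3, Psmd7 and Psme1. The call on the slope was not stable: leaving out vehicle rat 2, vehicle rat 3, rat 1 or 3 of the 30 mg/kg group, or any rat of the 200 mg/kg group ended it, with adjusted p from 0.027 to 0.15 over the 12 fits that leave out 1 rat.

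The slope was positive in 11 members (5.98% of all genes) and negative in 0 (5.34%) at an unadjusted p under 0.05, and 38 of 40 slopes were above 0 (51.9%). The median slope was 0.073 per 100 mg/kg, against 0.007 over all genes, and 0.114 without rat 3 at 200 mg/kg.

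Of the 3 activator genes, Psme1 and Psme2 were without overlap above vehicle at 200 mg/kg (9.19% of all genes) and Psme4 was not. Psme1 and Psme2 encode the alpha and beta subunits of PA28, the cap that opens the core without ATP. Psme1 measured 10.05, 10.14 and 10.15 in the vehicle rats, 9.95, 10.28 and 10.16 in the 30 mg/kg group, 10.25, 10.27 and 10.25 in the 100 mg/kg group, and 10.38, 10.39 and 10.42 in the 200 mg/kg group. Both upper dose groups lay above all vehicle rats, and the rats at 200 mg/kg lay above all others. The difference at 200 mg/kg was 0.29 (interval 0.10 to 0.47), with an adjusted p of 0.28, and the slope was 0.149 per 100 mg/kg with an adjusted p of 0.16. A second, dimmer probe set of Psme1 was 0.83 higher at 200 mg/kg without overlap (interval 0.122 to 1.546, adjusted p = 0.46). Its vehicle values were 3.74, 4.73 and 4.13, near the 25th percentile of all values, 3.84. Psme2 measured 8.69, 8.79 and 8.53 in the vehicle rats, 8.62, 8.92 and 8.59 in the 30 mg/kg group, 8.88, 8.69 and 8.82 in the 100 mg/kg group, and 8.97, 8.88 and 9.09 in the 200 mg/kg group. The rats at 200 mg/kg lay above the vehicle rats but overlapped the other doses, and the difference was 0.31 (interval 0.071 to 0.546, adjusted p = 0.40). Psme4 encodes PA200, a nuclear activator, and its values gave no such separation: 9.01, 9.12 and 9.19 in vehicle, 9.09, 9.12 and 9.17 in the 30 mg/kg group, 8.89, 9.16 and 9.16 in the 100 mg/kg group, and 9.16, 9.08 and 9.28 in the 200 mg/kg group, a difference of 0.067 at the top dose. The other probe sets of Psme4 were 0.235 and 0.148 above vehicle at 200 mg/kg, both with overlap. In both, the 200 mg/kg rats lay above all 30 mg/kg rats, by 0.416 and 0.259. Psmf1, which encodes the inhibitor PI31, was 0.16 above vehicle at 200 mg/kg with overlap. Rat 3 at 200 mg/kg, whose member median was near vehicle, held the highest value of Psme1 and of Psme2 among the 12 rats. Without Psmb10, Psme1 and Psme2 the members' median at 200 mg/kg was 0.12, with 33 of 37 genes above vehicle, a count taken after the values were seen.

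**Figure D4:**
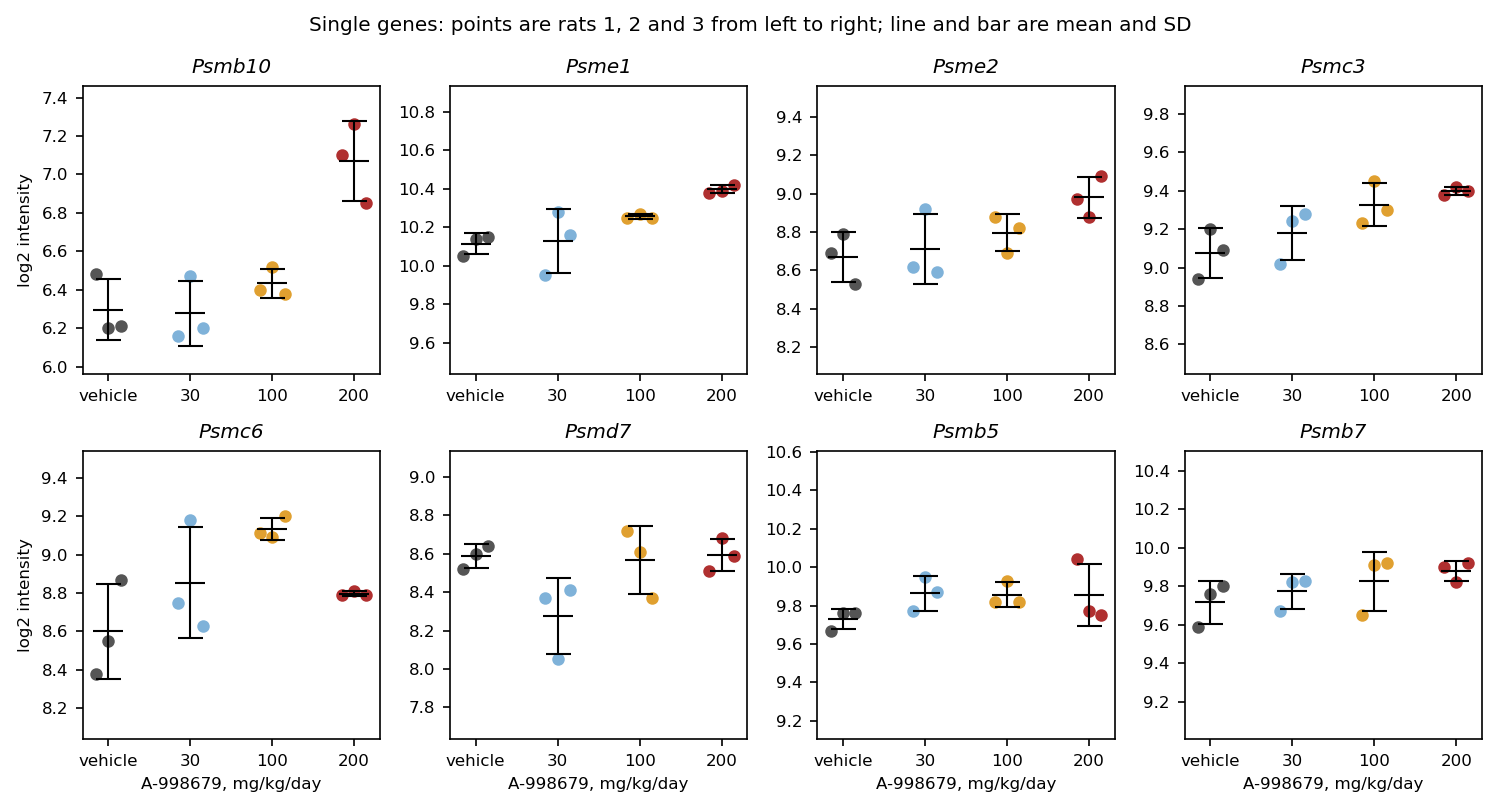
Log2 intensity of 8 genes in each rat (points, rats 1, 2 and 3 from left to right in each group), with the mean and SD of 3 rats, on axes of equal span. Psmb10, Psme1 and Psme2 are highest at 200 mg/kg, Psmc6 is highest at 100 mg/kg, and Psmd7 is lowest at 30 mg/kg. Each gene is shown by its brightest probe set, and the other probe sets of Psmc6 and Psmd7 did not share these orders.

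The other inducible genes did not all share this. Psmb8 and Psmb9, which the rule leaves out, encode the remaining inducible catalytic subunits. Psmb8 measured 8.40, 8.52 and 8.81 in vehicle and 8.23, 8.62 and 8.51 at 200 mg/kg, a difference of -0.12 (adjusted p = 0.92). Psmb9 measured 6.75, 6.70 and 7.36 in vehicle and 7.28, 7.43 and 7.33 at 200 mg/kg, a difference of 0.41 with overlap (adjusted p = 0.64). Of the 17 listed genes of the interferon response and antigen processing that are no members, Psmb8 and Psmb9 included, 0 passed at 200 mg/kg. Of all genes, 0.195% passed as higher and 0.148% as lower. Of the 17, 6 lay above vehicle (50.7% of all genes) and 11 below, and their median was -0.18. The 1 with an unadjusted p under 0.05 (5.75% of all genes as higher, 4.85% as lower) was Tapbp, at -1.0 (adjusted p = 0.17). It encodes the chaperone tapasin of peptide loading. Over the 12 rats the values of Psmb10 correlated at 0.79 with Psme1, 0.72 with Ifit2, 0.68 with Psme2, 0.63 with Psmb9, 0.19 with Psmb8 and -0.50 with Tapbp. All other listed interferon genes with a value in every rat lay between -0.50 (B2m) and 0.21 (Tap2). The genes most like Psmb10, picked after its values were seen, were Entpd5 (r = 0.909), Lgals8 (0.894), Ugdh (0.889), Casc3 (0.884) and Eef1g (0.883), out of 10840 genes. These correlations describe 12 rats that share 4 dose groups. In macrophages, where inducible subunits are also common, 4 of 5 listed markers were measured and 0 passed at 200 mg/kg, with a log2 summed level of 10.10 to 10.48 in vehicle and 10.12 to 10.53 at 200 mg/kg. For lymphocytes 4 of 5 listed markers were measured and 3 tested, and 0 passed. Of those measured, 2 had a mean no higher than a log2 value of 3.84. The summed level was 6.37 to 7.26 in vehicle and 6.98 to 7.48 at 200 mg/kg. The median log2 fold change at 200 mg/kg was 0.119 over the macrophage markers and 0.698 over the 3 lymphocyte markers tested. No marker of either cell type had an unadjusted p under 0.05 there (5.75% of all genes as higher, 4.85% as lower). Their part in the result was not tested.

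The 7 alpha subunit genes, which form the outer rings, were all above vehicle at 200 mg/kg, with a median of 0.22. Without overlap were 4 of them (Psma2, Psma4, Psma5 and Psma6), as were 9.19% of all genes. None passed. Psma2 was the highest: 9.59, 9.39 and 9.77 in vehicle, 9.35, 9.84 and 9.60 in the 30 mg/kg group, 9.65, 9.88 and 9.87 in the 100 mg/kg group, and 9.93, 9.80 and 9.88 in the 200 mg/kg group, a difference of 0.29 (interval 0.010 to 0.564, adjusted p = 0.54). Psma6 was 0.26 higher (adjusted p = 0.34) and Psma5 0.23 higher (adjusted p = 0.53), while Psma1 and Psma7 were 0.18 and 0.22 higher with overlap and Psma4 only 0.071. Psma3 was the lowest, at 6.89, 6.70 and 7.0 in vehicle, 6.62, 6.85 and 6.70 in the 30 mg/kg group, 6.68, 6.78 and 6.75 in the 100 mg/kg group, and 7.03, 6.81 and 6.84 in the 200 mg/kg group. Each dose group overlapped the vehicle rats, while the rats at 200 mg/kg all lay above those at 100 mg/kg.

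The 6 constitutive beta genes measured, which include 2 of the 3 catalytic ones, lay closer to vehicle at the top dose. All 6 were above vehicle at 200 mg/kg, but with a median of 0.048, and the median at 100 mg/kg was 0.11. Psmb5 encodes the subunit with chymotrypsin-like activity. It measured 9.67, 9.76 and 9.76 in vehicle, 9.77, 9.95 and 9.87 in the 30 mg/kg group, 9.82, 9.93 and 9.82 in the 100 mg/kg group, and 10.04, 9.77 and 9.75 in the 200 mg/kg group. Its rats at 30 and 100 mg/kg lay above all vehicle rats while those at 200 mg/kg overlapped them, and the difference at 200 mg/kg was 0.12 (interval -0.076 to 0.322, adjusted p = 0.78). Psmb7 encodes the trypsin-like subunit, which Psmb10 replaces. It measured 9.59, 9.76 and 9.80 in vehicle, 9.67, 9.82 and 9.83 in the 30 mg/kg group, 9.65, 9.91 and 9.92 in the 100 mg/kg group, and 9.90, 9.82 and 9.92 in the 200 mg/kg group, a difference of 0.16 without overlap (interval -0.044 to 0.366, adjusted p = 0.69). Psmb1, a beta subunit without catalytic activity, was the lowest of the group, with 10.06, 10.10 and 10.14 in vehicle, 10.0, 10.19 and 10.17 in the 30 mg/kg group, 10.14, 10.16 and 10.15 in the 100 mg/kg group, and 10.19, 10.05 and 10.11 in the 200 mg/kg group, a difference of 0.017 at the top dose (adjusted p = 0.98). Psmb2, Psmb3 and Psmb4 were within 0.051 of vehicle at the top dose. For Psmb2 that mean joined unlike rats: 9.89, 9.86 and 9.20 at 200 mg/kg against 9.53, 9.63 and 9.63 in vehicle. In rat 1 at 200 mg/kg all 6 genes lay above their vehicle means, by 0.09 (Psmb1) to 0.311 (Psmb5).

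The 6 ATPase genes of the 19S base were above vehicle at every dose, with medians of 0.12, 0.22 and 0.20 at 30, 100 and 200 mg/kg. Psmc3 was the highest at 200 mg/kg: 8.94, 9.20 and 9.09 in vehicle, 9.02, 9.24 and 9.28 in the 30 mg/kg group, 9.23, 9.45 and 9.30 in the 100 mg/kg group, and 9.38, 9.42 and 9.40 in the 200 mg/kg group. Both upper dose groups lay above all vehicle rats, by 0.32 at 200 mg/kg (interval 0.115 to 0.534, adjusted p = 0.28) and 0.25 at 100 mg/kg (adjusted p = 0.78). Psmc6 had the smallest p of all members at 100 mg/kg, and its order of doses was another: 8.38, 8.55 and 8.87 in vehicle, 8.75, 9.18 and 8.63 in the 30 mg/kg group, 9.11, 9.09 and 9.20 in the 100 mg/kg group, and 8.79, 8.81 and 8.79 in the 200 mg/kg group. It was 0.53 higher at 100 mg/kg (adjusted p = 0.51) and 0.20 at 200 mg/kg. Its other probe sets were 0.29 and 0.287 higher at 100 mg/kg and 0.33 and 0.55 higher at 200 mg/kg, all with overlap. The peak at 100 mg/kg was thus that of the brightest Psmc6 probe set alone. Psmc1 was 0.26 higher at 200 mg/kg without overlap (adjusted p = 0.45), and Psmc2 and Psmc5 were 0.20 and 0.18 higher with overlap. Psmc4 was the lowest, with 9.03, 9.27 and 9.05 in vehicle, 9.10, 9.16 and 9.15 in the 30 mg/kg group, 9.10, 9.35 and 9.22 in the 100 mg/kg group, and 9.40, 9.22 and 9.04 in the 200 mg/kg group.

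Among the other genes of the 19S cap the differences were smaller and more mixed. In the base, Psmd2, which encodes the scaffold on which ubiquitin shuttles dock, lay above vehicle by 0.20 for 200 mg/kg and by 0.21 for 100 mg/kg, without overlap at both doses (adjusted p = 0.55 and 0.81), while its partner scaffold Psmd1 and the ubiquitin receptor Psmd4 were at 0.012 and -0.043 at 200 mg/kg. The 8 lid genes among the members were all above vehicle at 200 mg/kg with a median of 0.14. Sem1, a small lid subunit whose symbol is outside the rule, was not: it measured 9.25, 9.33 and 9.25 in vehicle and 9.23, 9.11 and 8.88 at 200 mg/kg, lower without overlap, a difference of -0.21 (interval -0.414 to -0.002, adjusted p = 0.56). Psmd6, a structural lid gene, was the highest of them: 8.80, 9.27 and 8.89 in vehicle, 8.59, 8.76 and 9.12 in the 30 mg/kg group, 9.0, 9.14 and 9.39 in the 100 mg/kg group, and 9.38, 9.0 and 9.29 in the 200 mg/kg group, a difference of 0.24 with overlap. Psmd14, the deubiquitinase, measured 8.11, 8.26 and 8.07 in vehicle, 8.23, 8.39 and 8.22 in the 30 mg/kg group, 8.37, 8.53 and 8.45 in the 100 mg/kg group, and 8.46, 8.49 and 8.07 in the 200 mg/kg group. It was without overlap at 100 mg/kg, at 0.31 (adjusted p = 0.77), and overlapped at 200 mg/kg through rat 3.

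Psmd7, which encodes the partner of the Psmd14 product in the lid, was the member without overlap below vehicle at the lowest dose. It measured 8.52, 8.6 and 8.64 in vehicle, 8.37, 8.05 and 8.41 in the 30 mg/kg group, 8.72, 8.61 and 8.37 in the 100 mg/kg group, and 8.51, 8.68 and 8.59 in the 200 mg/kg group. All rats at 30 mg/kg lay below all vehicle rats, at -0.31 (adjusted p = 0.95), whereas the second Psmd7 probe set was 0.089 above vehicle at that dose. Psmd11, also among the 3 smallest p at 30 mg/kg, measured 9.23, 9.34 and 9.50 in vehicle, 9.43, 9.65 and 9.48 in the 30 mg/kg group, 9.49, 9.41 and 9.51 in the 100 mg/kg group, and 9.50, 9.52 and 9.38 in the 200 mg/kg group, with overlap in each comparison. The second Psmd11 probe set lay slightly below vehicle, at -0.071 for 30 mg/kg, -0.058 for 100 mg/kg and -0.051 for 200 mg/kg, with overlap. The remaining lid genes Psmd3, Psmd8, Psmd12 and Psmd13 were 0.17, 0.033, 0.098 and 0.19 above vehicle at 200 mg/kg, Psmd3 without overlap.

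The chaperones that assemble the 19S base were mixed. Psmd5, Psmd9 and Psmd10 were at 0.17, -0.10 and -0.043 at 200 mg/kg. Psmd9 was the lowest gene of the 38: 7.55, 7.47 and 7.34 in vehicle, 7.12, 7.47 and 7.16 in the 30 mg/kg group, 7.28, 7.68 and 7.46 in the 100 mg/kg group, and 7.56, 7.29 and 7.2 in the 200 mg/kg group. Its second, dimmer probe set disagreed, with 6.18, 6.13 and 5.85 in vehicle and 6.93, 6.09 and 6.49 at 200 mg/kg, a difference of 0.45 with overlap, so the direction of Psmd9 was not settled. Psmc3ip and Psme3ip1, which are no parts of the proteasome, were at -0.37 (interval -1.62 to 0.88) and 0.079.

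The correlation of a member with the mean of the other members over the 12 rats had a median of 0.61, and 25 of 40 exceeded 0.5, where 8.573% of 10801 other genes did so with the member mean. With each group centred on its own mean, the median was 0.51 and 21 of 40 exceeded 0.5, against 10.57% of the other genes. Psmd2 (0.90) and Psma1 (0.89) followed the others most closely, and Psmd10 (-0.23), Psmd7 (-0.04) and Psmc3ip (-0.03) had the lowest values. Psmb10 was at 0.51, and at 0.31 within groups. The 5 other genes most like the member mean were Cwc15, a spliceosome component (r = 0.91), Lyrm2, of the mitochondrial LYR motif family (0.906), Rbis, a ribosome biogenesis factor (0.903), Sf3b4, a splicing factor (0.889), and Pgrmc1, a heme-binding membrane protein (0.885). These are descriptions over 12 rats that share a platform and 4 dose groups.

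Other genes of the ubiquitin-proteasome system were taken from a list of 44, of which 35 were measured and 34 tested at 200 mg/kg. The list also holds parts of the proteasome whose symbols the rule does not take in: Psmb8, Psmb9, Sem1 and the ubiquitin receptor Adrm1, which was 0.11 above vehicle with overlap. None passed there. At an unadjusted p under 0.05, 5 of them lay higher (5.75% of all genes) and 2, Nfe2l2 and Sem1, lower (4.85%). In all, 22 lay above vehicle (50.7% of all genes) and 12 below, and the median was 0.044 against 0.16 for the members. The smallest p belonged to Sqstm1, the autophagy receptor p62 and a known Nfe2l2 target, with 10.82, 10.49 and 10.66 in vehicle and 11, 11 and 10.94 at 200 mg/kg, a difference of 0.32 without overlap (adjusted p = 0.35). Ubqln2, a shuttle that carries ubiquitinated proteins to the cap, followed with 7.71, 7.95 and 7.88 in vehicle and 8.22, 8.04 and 8.16 at 200 mg/kg, a difference of 0.29 without overlap (adjusted p = 0.43). Nfe2l2 itself measured 9.39, 9.28 and 9.27 in vehicle and 8.73, 8.98 and 9.14 at 200 mg/kg, a difference of -0.36 without overlap (adjusted p = 0.44). Of genes picked for their role after the values were seen, Nfe2l1 was 0.29 above vehicle with overlap (adjusted p = 0.70). Pomp, the chaperone that completes the core, was 0.098 above vehicle, and Psmg2, a chaperone of the alpha ring, was 0.50 above without overlap (adjusted p = 0.45).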

How the data were processed

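Liver RNA of 12 rats, 3 per group, had been hybridized to Affymetrix RAE230 2.0 arrays, 1 per rat, and rats were assigned to groups by the sample labels. The authors deposited log10 intensities made with Rosetta Resolver 7.2, 1 per probe set and array. The base of the logarithm was taken from the range of the values. In the sources used here no method of background correction or scaling is given. The authors also deposited signed folds of each treated rat against vehicle from their error model, with small or insignificant folds set to 1, and these were not used.

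The log10 values were converted to log2 values without further normalization. Empty cells (12.1%, 12.0 to 12.5% per array) were treated as missing. Names came from the platform annotation: 19691 had 1 symbol, 424 several and 9061 none. Group means were fitted over all 12 arrays with limma 3.58.1 in R 4.3.3 (eBayes with a variance trend, 8 residual degrees of freedom), for 6 comparisons. P-values were two-sided and adjusted with the Benjamini-Hochberg method over all probe sets tested, at a threshold of 0.05, and fits were tested on simulated data. The number of arrays limits the precision. A gene was represented by its brightest probe set. Groups were called without overlap where all values of a group lay beyond all values of the other.

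Values in every rat were given for the catalytic genes, members that passed, the 3 smallest p at each dose, the highest and lowest member of each role and disagreeing probe sets (opposite signs and over 0.5 apart). Members and lists were chosen with earlier results of these data known. Dropping Psmb10, Psme1 and Psme2, the background of brighter genes, the interferon motif and the correlation with Psmb10 were chosen after seeing the data. Alternatives are given in the closing section. Summaries were made with Python 3.11.15 and pandas 2.3.3 and figures with matplotlib 3.10.9.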

Additional observations from a re-analysis of the deposited data

How the results depend on the processing

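No member passed at 200, 100 or 30 mg/kg, for the mean of the doses or for 200 against 30 mg/kg under any alternative tested with adjusted p-values, except that with array quality weights Psmb10 passed at 200 mg/kg (1 gene, adjusted p = 0.042). By the methods' t-test at an unadjusted p of at most 0.05, the members that passed all lay higher: 9 at 200 mg/kg (5.03% of all genes passed as higher and 4.19% as lower by the same test), 6 at 100 mg/kg (4.32% higher, 3.35% lower), 1 at 30 mg/kg (2.2% higher, 2.41% lower), 4 with the doses averaged (4.39% higher, 2.57% lower), 11 for the slope (5.94% higher, 5.19% lower) and 1 for 200 against 30 mg/kg (3.42% higher, 3.07% lower). The slope of Psmb10 passed in 8 of 11 alternatives with adjusted p-values (log2 slope 0.247 to 0.414 over the 11). It did not pass without a variance trend (adjusted p = 0.16, 0 members passing), with the t-test after Benjamini-Hochberg (0.081, 0 members) or over the rank of dose (0.12, 0 members), where the member median was 0.051 per rank step. Leaving out 1 rat gave 0 to 1 members for the slope (0 in 7 of 12 fits) and 0 otherwise.

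Leaving out 1 rat, the member median ran from 0.087 to 0.20 at 200 mg/kg, 0.09 to 0.148 at 100 mg/kg, 0.007 to 0.091 at 30 mg/kg (0.025 with all rats, 0.091 without rat 1 at that dose and 0.007 without vehicle rat 1), 0.069 to 0.132 for the mean of the doses, 0.055 to 0.114 for the slope and 0.047 to 0.168 for 200 against 30 mg/kg (0.047 without rat 1 and 0.168 without rat 3 at 200 mg/kg). It kept its sign throughout. At 200 mg/kg it was 0.162 to 0.17 with quantile normalization, 75th percentile scaling or a floor. Replicate numbers did not pair the rats: over 18 same-numbered pairs the correlation of deviations was -0.0743 to 0.0763, with 0 over 0.1, and 6 of 12 rats correlated best with a rat of their own number. With the replicate block the member median at 200 mg/kg was 0.162, 0 members passed there and 1 passed for the slope.

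Some named members near 0 changed sign, none of them called. Averaging its probe sets turned Psmd9 to 0.176 at 200 mg/kg and 0.111 for the slope, and array quality weights turned Psmd7 to 0.006 at 100 mg/kg. Leaving out 1 rat gave, at 200 mg/kg, -0.047 to 0.103 for Psma3, -0.019 to 0.049 for Psmb1 and -0.038 to 0.048 for Psmd7. At 100 mg/kg it gave -0.094 to 0.078 for Psmd7, -0.085 to 0.114 for Psmd9 and -0.086 to 0.054 for Psme4. For the slope it gave -0.003 to 0.071 for Psma3, -0.006 to 0.025 for Psmb1, 0 to 0.053 for Psmd11, -0.046 to 0.036 for Psmd9 and -0.004 to 0.042 for Psme4. The causes were not tested.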
